A study of Mus musculus with 9 samples.

Results

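The mitochondrially encoded genes are those of the mitochondrial chromosome, which carry the prefix mt- in the mouse annotation. They were chosen by that prefix alone, which gave 37 of the 52636 genes in the deposited count table, namely 13 mRNAs, 2 rRNAs and 22 tRNAs. Total RNA of left ventricular tissue from 16-week-old C57BL6J mice had been sequenced in 9 libraries. The deposited genotype was WT for libraries 1 to 5 and KO for libraries 6 to 9. In the study, KO means mice with both alleles of Vdac2 floxed and Cre driven by the αMHC promoter, which acts in cardiac myocytes and leaves Vdac2 intact in other cells of the heart. WT means littermates that carried either the flox alleles or Cre, so that a WT animal was not free of both. Animals of both sexes were used, and the labels do not give the sex behind a library. VDAC2 is a channel of the outer mitochondrial membrane. No source used here gives animals other than by the library number, so the tests below measure the spread between these 9 libraries.

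The level of Vdac2 went against the labels in 5 libraries. Under the WT label it stood at 20.1, 366, 58.4, 365 and 21.3 CPM (normalised counts scaled to a common library size) in libraries 1 to 5. Under the KO label it stood at 384, 20.5, 421 and 19.1 CPM in libraries 6 to 9. Libraries 1, 3 and 5 were therefore low with a WT label, and libraries 6 and 8 were high with a KO label. For this reason the mitochondrial genes were described in addition across sets formed from Vdac2 itself. The low-Vdac2 set, under 100 CPM, was libraries 1, 5, 7 and 9, and the high-Vdac2 set, over 300 CPM, was libraries 2, 4, 6 and 8. The values nearest to these limits were 21.3 CPM in library 5 and 365 CPM in library 4, with library 3, at 58.4 CPM, shown apart from both sets. Since a measured value formed these sets, they are described without a test and are not called KO or WT. Sequencing lane 1 held libraries 1 to 5 and lane 2 held libraries 6 to 9. Each set thus holds 2 libraries of each lane, whereas label and lane cannot be told apart.

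The mitochondrial genome encodes 13 proteins, all of them subunits of the respiratory complexes or of ATP synthase, together with the rRNAs and tRNAs of its own translation system. Both of its strands are transcribed into long precursor RNAs that are cut mainly at the tRNAs between the coding genes, so that many genes begin life in the same molecule. The heart is among the tissues richest in this RNA, because cardiomyocytes are packed with mitochondria. In bulk tissue, fewer cardiomyocytes and less mitochondrial RNA per cardiomyocyte cannot be told apart.

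Of the 37 genes, 15 had at least 10 counts in every library. These were 7 of the 13 mRNAs (mt-Nd1, mt-Nd2, mt-Co1, mt-Nd4, mt-Nd5, mt-Nd6 and mt-Cytb), both rRNAs (mt-Rnr1 and mt-Rnr2) and 6 of the 22 tRNAs (mt-Tl1, mt-Ti, mt-Tm, mt-Tw, mt-Tt and mt-Tp). At the other end, 9 genes had 0 counts in all 9 libraries and 16 genes had no more than 5 in any. With 27345052 to 44673988 counts per library, a count of 0 allows a level of up to 3 counts, which is 0.0672 to 0.110 CPM before normalisation, for counting error only.

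The 6 mRNAs without usable counts were neighbours, lying between mt-Co1 and mt-Nd4. They encode 2 subunits of cytochrome c oxidase (mt-Co2 and mt-Co3), 2 of ATP synthase (mt-Atp8 and mt-Atp6) and 2 of complex I (mt-Nd3 and mt-Nd4l). The highest count was 4, for mt-Co2 in library 8. The tRNAs among them (mt-Ts1, mt-Td, mt-Tk, mt-Tg and mt-Tr) had 0 to 5 counts. The mRNAs on either side were among the most abundant of the tissue, with 590381 to 2390531 counts on mt-Co1 and 59921 to 137102 on mt-Nd4.

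This stretch has a copy in the nuclear genome. On the GRCm38 build, 7 annotated pseudogenes in chr1:24611535-24616197, on the minus strand, follow the order of mt-Co1, mt-Co2, mt-Atp6, mt-Co3, mt-Nd3, mt-Nd4l and mt-Nd4. The reads were 50 bases long, and every 50-base window of each mitochondrial transcript was looked up in the other annotated transcripts of the table. Of the windows of mt-Co2, 100% occurred unchanged in a nuclear transcript, as did 99.9% of mt-Co3, 99.5% of mt-Atp6, 98.8% of mt-Nd4l and 98.0% of mt-Nd3. The share was 62.2% for mt-Nd4, 51.1% for mt-Co1, 8.19% for mt-Nd2 and 7.61% for mt-Nd5. It was 1.04% for mt-Rnr2 and 0% for mt-Nd1, mt-Nd6, mt-Cytb, mt-Rnr1 and every tRNA. For mt-Atp8 it was also 0%, since no annotated pseudogene covers the gap between the copies of mt-Co2 and mt-Atp6 where a copy of mt-Atp8 would lie. Copies of mt-Ts1, mt-Td, mt-Tk, mt-Tg and mt-Tr would likewise lie in gaps between the annotated pseudogenes. Only annotated transcripts were searched, so an unannotated copy would not be seen. The handling of reads that align to more than 1 place is not given in the sources used here, and its part in the missing counts was not tested.

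The sequences show how alike the copies are. The first 60 bases of mt-Co2 (chrM:7013-7072, plus strand), which encodes a core subunit of cytochrome c oxidase, and of its copy Gm28661 are printed because no read of 50 bases could separate them. All 681 aligned bases of this pair were identical. All bases are in lower case here because none differ.
mt-Co2: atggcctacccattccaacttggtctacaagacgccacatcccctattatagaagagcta
Gm28661: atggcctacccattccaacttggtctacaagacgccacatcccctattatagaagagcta

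The copy of mt-Co1 begins inside the gene, and the bases that separate the pair lie at that edge. Over 492 aligned bases 6 differed, and in mt-Co1 numbering, counted from 1 at its first base, they were T1056A, C1057T, A1059G, A1060G, C1062A and A1066T, with the mt-Co1 base first. They are printed in capitals for chrM:6381-6417 and its counterpart in Gm29216.
mt-Co1: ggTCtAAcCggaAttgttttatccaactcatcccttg
Gm29216: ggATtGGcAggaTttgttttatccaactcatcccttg

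The copy of mt-Nd3 differed from it at 1 of 345 bases, T3C, counted from the first base of mt-Nd3 and shown in capitals for chrM:9459-9485.
mt-Nd3: atTaacctgtacactgttatcttcatt
Gm28438: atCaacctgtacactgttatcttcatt
The other 4 copies, of mt-Nd4, mt-Nd4l, mt-Co3 and mt-Atp6, had 0 differences over their whole aligned length.

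The copies themselves held few counts. Those on all 7 summed to between 62, in library 3, and 197, in library 5. Gm10925, the copy of mt-Atp6, had 30 to 102 counts per library and Gm28661 had 18 to 84. Gm10925 stood at 1.87, 1.83, 1.82 and 2.35 CPM in the low-Vdac2 libraries 1, 5, 7 and 9, and at 1.096, 1.82, 1.25 and 1.59 CPM in the high-Vdac2 libraries 2, 4, 6 and 8. These sets overlapped. Gm28661 stood at 1.18, 2.56, 1.19 and 1.20 CPM against 0.840, 1.102, 0.477 and 1.15 CPM, without overlap. Across all 16322 tested genes, 7.16% had all 4 low-Vdac2 libraries above all 4 high-Vdac2 libraries, 4.93% had them below, and 12.1% did not overlap in either direction. Whether the reads on these copies came from the nuclear or the mitochondrial genome was not tested. Copies of mt-Co1 and mt-Co2 on chromosome 2, named here after their values were seen, held more. Gm13340 had 402 to 1038 counts and Gm13341 had 128 to 312, with 27.5% and 36.0% of their windows shared with the mitochondrial genes.

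**Figure D1:**
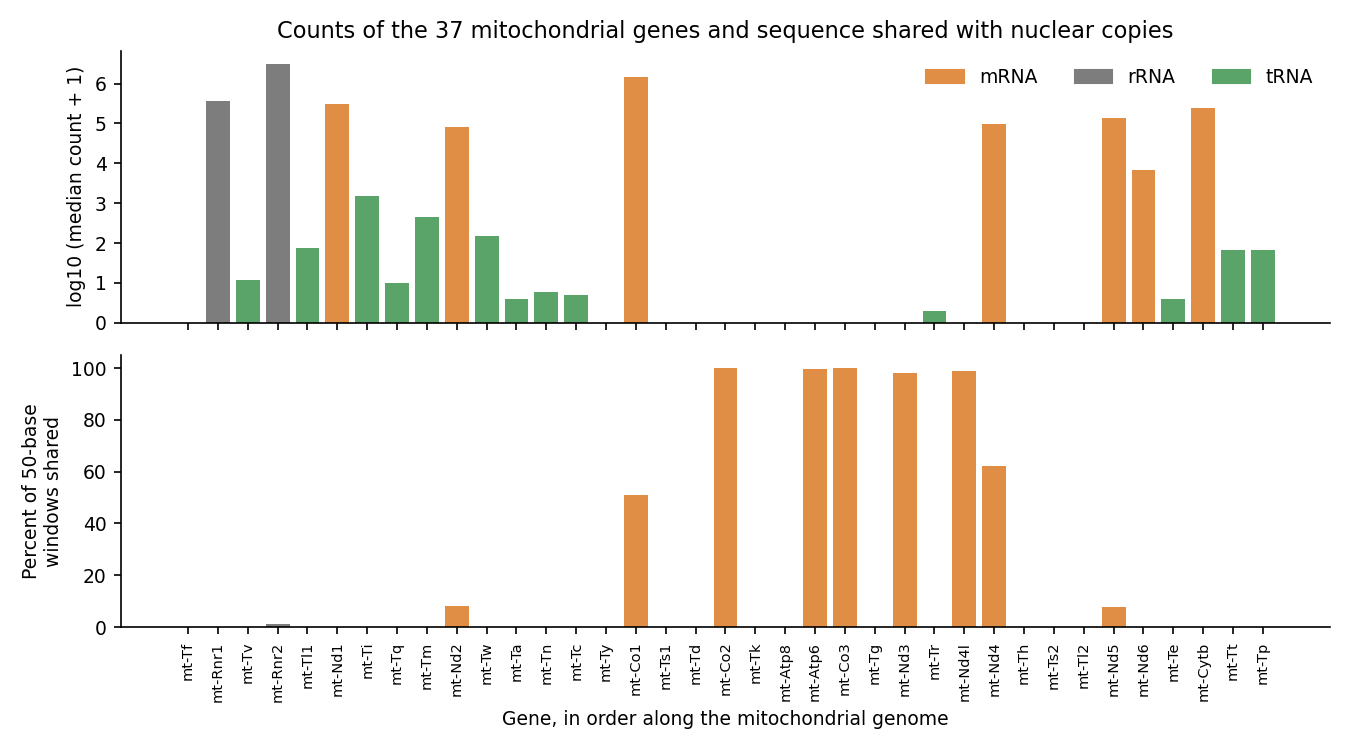
The upper panel plots log10 of the median count over 9 libraries plus 1 for the 37 genes in their order along the mitochondrial genome, and the lower panel plots the percent of 50-base windows found unchanged in an annotated nuclear transcript. The 6 mRNAs with no more than 4 counts in any library lie side by side, and 5 of them share 98.0% or more of their windows.

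Mitochondrial RNA took a large share of each library. All 37 genes together held 19.2%, 17.8%, 17.8% and 17.5% of the counts in libraries 1, 5, 7 and 9, and 17.5%, 17.3%, 16.8% and 17.0% in libraries 2, 4, 6 and 8. The low-Vdac2 set had a median 1.04 times that of the high-Vdac2 set. In each lane both low-Vdac2 libraries lay above both high-Vdac2 libraries, as did 24.5% of tested genes in lane 1 and 20.7% in lane 2 by their CPM. Across lanes the sets overlapped, by 17.51% in library 9 against 17.55% in library 2. In library 3 the share was 9.07%.

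The mRNAs and rRNAs were looked at separately. The 13 mRNAs held 7.82%, 7.35%, 6.64% and 7.38% of counts in the low-Vdac2 libraries, and 7.06%, 7.83%, 6.15% and 7.49% in the high-Vdac2 libraries. These values were interleaved, and the ratio of the set medians was 1.01. Within lane 1 the ratio of means was 1.02 and within lane 2 it was 1.03. The 2 rRNAs held 11.4%, 10.4%, 11.2% and 10.1% against 10.5%, 9.46%, 10.6% and 9.51%, a ratio of medians of 1.08 with overlap. They took this share although the Ribo-Zero Gold kit, used to make the libraries, is designed to remove cytoplasmic and mitochondrial rRNA. How much rRNA was removed from each library was not tested. The tRNAs held 0.00572% to 0.0109% of counts in all 9 libraries.

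Between the deposited labels the mRNA share did not differ beyond the spread of the libraries. With the WT label it was 6.77% ± 1.70 (SD, n = 5) and with the KO label 6.92% ± 0.634 (SD, n = 4), with an exact two-sided permutation p of 0.984 over all arrangements of the labels. The rRNA share was 9.42% ± 2.41 and 10.4% ± 0.704 in the same libraries (exact permutation p = 0.683). Over 7 such share measures all p-values adjusted to 1. Without library 3 the difference in mRNA share of labelled KO over labelled WT turned from 0.149 to -0.599 percentage points (exact permutation p = 0.171). It was -0.0422 points without library 8 and -0.0059 points without library 9.

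**Figure D2:**
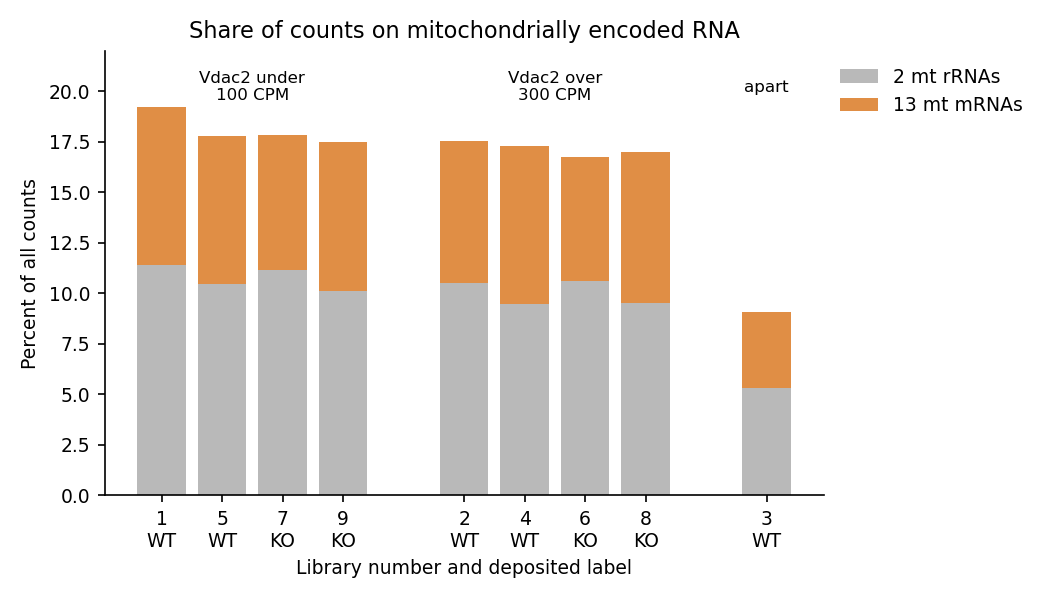
Each bar is a library, and its height is the percent of all counts on the 2 mt rRNAs (grey) and the 13 mt mRNAs (orange). The libraries are grouped by Vdac2 set, low and then high, with library 3 apart at the end. The 8 libraries of the sets reach 16.8% to 19.2%, and library 3 reaches 9.07%.

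Gene by gene, 0 of the 15 counted genes separated the low-Vdac2 from the high-Vdac2 set, beside the 12.1% of all tested genes that did. Within lane 1, 1 of the 15 (mt-Tt) had both low-Vdac2 libraries above both high-Vdac2 libraries and 0 had them below, beside 24.5% and 23.3% of tested genes. Within lane 2, 0 were above and 3 (mt-Nd6, mt-Cytb and mt-Tp) were below, beside 20.7% and 17.1%. In the sentences that follow, low-Vdac2 values are for libraries 1, 5, 7 and 9 and high-Vdac2 values for libraries 2, 4, 6 and 8, in these orders. The ratio is always the low-Vdac2 median over the high-Vdac2 median.

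The complex I mRNAs come first. Complex I is the entry point for electrons from NADH, and the mitochondrial genome supplies its membrane-bound core. mt-Nd1 (chrM:2751-3707) was at 10233, 9739, 8387 and 8134 CPM in the low-Vdac2 libraries and at 9157, 9924, 7874 and 9167 CPM in the high-Vdac2 libraries. Both sets ran over the same range and the ratio was 0.989. mt-Nd2 (chrM:3914-4951) was at 3627, 3001, 2586 and 1767 CPM against 2844, 3148, 2488 and 2351 CPM. Here the low-Vdac2 set held both the highest and the lowest value of the 8 libraries, and the ratio was 1.05.

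mt-Nd4 (chrM:10167-11544) encodes a subunit of the proton-pumping arm. It was at 4496, 3277, 3059 and 2020.2 CPM against 3637, 3679, 2977 and 2784 CPM, a ratio of 0.958. mt-Nd5 (chrM:11742-13565), the longest of these mRNAs, was at 5659, 4553, 4467 and 2804 CPM against 4530.3, 5188, 4014 and 3920.4 CPM. Its ratio was 1.06, and as for mt-Nd2 and mt-Nd4 library 1 was the highest and library 9 the lowest of the 8. mt-Nd6 (chrM:13552-14070) is the mRNA of the other strand and overlaps the end of mt-Nd5. It was at 224, 234, 189 and 153 CPM against 204, 242, 208 and 225 CPM. The ratio was 0.955, and in lane 2 alone both low-Vdac2 libraries were below both high-Vdac2 libraries. The strand setting of the counting is not given in the sources used here, so reads of the opposite strand cannot be told apart from mt-Nd6.

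mt-Co1 (chrM:5328-6872) encodes the catalytic subunit of cytochrome c oxidase, complex IV. It was at 46547, 44505, 41275 and 55134 CPM in the low-Vdac2 libraries and at 45697, 51217, 40398 and 54858 CPM in the high-Vdac2 libraries. The sets were interleaved, the highest values being in libraries 9 and 8, and the ratio was 0.940. mt-Cytb (chrM:14145-15288) encodes cytochrome b of complex III. It was at 9455, 7466, 6934 and 6032 CPM against 7874, 7994, 7093 and 6999 CPM. The ratio was 0.962, the low-Vdac2 set again spanning the high-Vdac2 set, while in lane 2 alone it was below it.

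The rRNAs form the mitochondrial ribosome. mt-Rnr1 (chrM:70-1024), of the small subunit, was at 13692, 11218, 11272 and 8592 CPM against 11333, 10608.5, 11275 and 8693 CPM, a ratio of 1.03. mt-Rnr2 (chrM:1094-2675), of the large subunit, was at 103264, 92183, 101251 and 95664 CPM against 87755 to 100882 CPM, also a ratio of 1.03. The sets overlapped for both.

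Over the 7 mRNAs the log2 ratio of the set medians ran from -0.09 for mt-Co1 to 0.08 for mt-Nd5, with a median of -0.06. The median over all tested genes was 0.005. Scaling by the total count, without TMM, moved the median of the mRNAs to 0.02, so its sign depended on the scaling. The count of separated mRNAs was 0 with every scaling tried and also with libraries 8 and 9 left out.

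**Figure D3:**
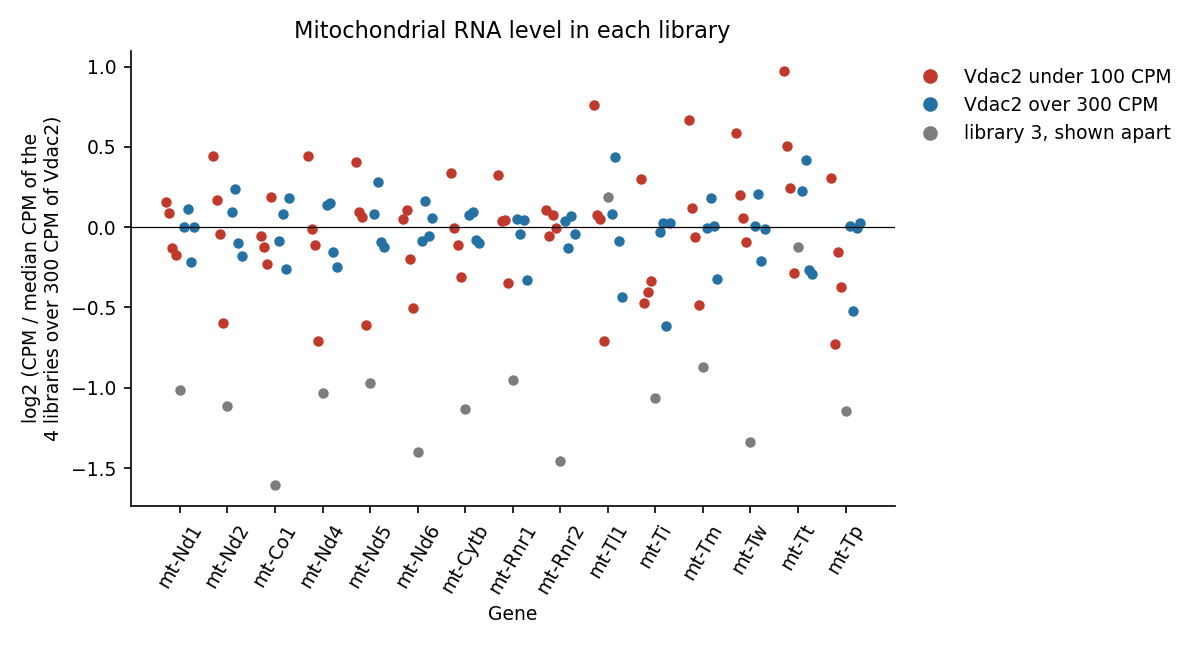
For the 15 counted genes, each point is the log2 of a library's CPM over the median CPM of the 4 high-Vdac2 libraries. Low-Vdac2 (red) and high-Vdac2 (blue) libraries are interleaved for every gene, and library 3 (grey) is the lowest point for 13 of 15.

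The tRNAs bring amino acids to the mitochondrial ribosome and mark the cuts in the precursor. The 6 counted ones are printed 5′ to 3′ to show how their ends meet the genes beside them, with capitals for bases that the annotation gives to a neighbouring gene as well. mt-Tl1 (chrM:2676-2750) joins mt-Rnr2 to mt-Nd1, mt-Ti (chrM:3706-3774) follows mt-Nd1, mt-Tm (chrM:3845-3913) precedes and mt-Tw (chrM:4950-5016) follows mt-Nd2, and mt-Tt (chrM:15289-15355) follows mt-Cytb. These lie on the plus strand, and mt-Tp (chrM:15356-15422), next to mt-Tt, on the minus strand.
mt-Tl1: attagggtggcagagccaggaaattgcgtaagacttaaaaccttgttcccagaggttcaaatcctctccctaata
mt-Ti: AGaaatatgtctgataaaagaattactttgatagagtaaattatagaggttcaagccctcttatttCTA
mt-Tm: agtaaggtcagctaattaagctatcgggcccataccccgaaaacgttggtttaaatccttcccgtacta
mt-Tw: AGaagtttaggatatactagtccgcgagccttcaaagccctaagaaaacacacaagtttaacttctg
mt-Tt: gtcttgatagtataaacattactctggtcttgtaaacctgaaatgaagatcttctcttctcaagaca
mt-Tp: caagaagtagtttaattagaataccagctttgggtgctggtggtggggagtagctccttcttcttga

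mt-Ti, for isoleucine, was the most counted tRNA, at 70.7, 41.5, 43.5 and 45.5 CPM in the low-Vdac2 libraries and 56.4, 58.6, 37.5 and 58.6 CPM in the high-Vdac2 libraries. The ratio was 0.774 with overlap, library 1 of the low-Vdac2 set being the highest of the 8 and library 6 of the high-Vdac2 set the lowest. mt-Tm, for methionine, was at 23.4, 16.0, 14.1 and 10.5 CPM against 14.7, 16.7, 14.8 and 11.8 CPM. Its ratio was 1.02, with library 1 the highest and library 9 the lowest of the 8. mt-Tw, for tryptophan, was at 6.53, 4.999, 4.53 and 4.08 CPM against 4.38, 5.02, 3.76 and 4.32 CPM, a ratio of 1.09.

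mt-Tt, for threonine, was at 3.74, 2.71, 2.27 and 1.57 CPM against 2.23, 2.55, 1.59 and 1.56 CPM. Its ratio of 1.30 was the highest of the 15 genes, with the low-Vdac2 libraries above in lane 1 and overlap in lane 2. The counts behind it were 53 to 114 per library. mt-Tl1, for leucine, was at 3.57, 2.23, 2.19 and 1.29 CPM against 2.23, 2.85, 1.99 and 1.56 CPM, a ratio of 1.05. mt-Tp, for proline, was at 2.43, 1.19, 1.76 and 1.52 CPM against 1.97, 1.37, 1.96 and 2.00 CPM, on 33 to 74 counts. The ratio was 0.836 with overlap, and in lane 2 alone the low-Vdac2 libraries were below.

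The counted tRNAs can be set against the mRNA beside them. mt-Ti had 4.26 to 6.91 counts per 1000 counts of mt-Nd1, and mt-Tm had 5.01 to 6.54 per 1000 of mt-Nd2. mt-Tt had 0.223 to 0.513 per 1000 of mt-Cytb, and mt-Tl1 had 0.159 to 0.529 per 1000 of mt-Nd1. mt-Tw had 1.40 to 2.31 per 1000 of mt-Nd2. Across lanes the Vdac2 sets overlapped for all 5 of these ratios. In lane 1 alone the low-Vdac2 libraries were above for mt-Tm, mt-Tw and mt-Tt, in lane 2 alone for mt-Tt, and they overlapped in both lanes for mt-Ti and mt-Tl1. By their CPM, 24.5% of tested genes were above in lane 1 and 20.7% in lane 2. Reads of uncut precursor that reach into a tRNA cannot be told apart here from reads of the mature tRNA.

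Among the 22 tRNA genes 8 lie on the minus strand, and mt-Tp was the only one of these with 10 counts in every library. mt-Tq had 7 to 28, mt-Tn 3 to 11, mt-Tc 2 to 9, mt-Te 1 to 10 and mt-Ta 0 to 9, whereas mt-Ty and mt-Ts1 had 0. On the plus strand mt-Tv had 5 to 20 counts, and mt-Tf, mt-Ts2 and mt-Tl2 had no more than 3. mt-Td, mt-Tk, mt-Tg and mt-Th were at 0 throughout.

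Levels of different genes were compared per length, as CPM per 1000 windows of 50 bases. Using all windows, the medians over 9 libraries were 30546 for mt-Co1, 10084 for mt-Nd1, 6478 for mt-Cytb, 2615 for mt-Nd2, 2517 for mt-Nd5, 2301 for mt-Nd4 and 443 for mt-Nd6. The same counts divided by only the windows that no nuclear transcript shares gave 62514 for mt-Co1 and 6093 for mt-Nd4, which put mt-Nd4 above mt-Nd2 and mt-Nd5. This scale holds only if no read from a shared window was counted, which was not tested. mt-Co1 then lay beside mt-Rnr2, at 63062, while mt-Rnr1 was at 12382. Both rRNA values come from counts left after the removal of rRNA, so they do not measure the rRNA level in the tissue. The order mt-Co1, mt-Nd1, then mt-Cytb or mt-Nd4, then mt-Nd2, mt-Nd5 and mt-Nd6 held in all 9 libraries on this scale. In libraries 1 to 4 mt-Nd4 was above mt-Cytb, and in libraries 5 to 9 it was below. In the scale with all windows, mt-Nd4 was above mt-Nd5 in libraries 1 and 2 and below it in the other 7. The tRNAs ran from 85.6 for mt-Tl1 to 2276 for mt-Ti.

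Libraries 8 and 9 differed from the others in the make-up of the mitochondrial mRNA. mt-Co1 took 68.3% and 72.5% of mitochondrial mRNA counts there, against 54.9% to 62.9% in the other 7 libraries. The ratio of mt-Co1 to mt-Nd5 was 14.0 and 19.7, against 7.29 to 10.1 elsewhere, and that of mt-Co1 to mt-Nd2 was 23.3 and 31.2, against 12.8 to 16.3. mt-Nd2 took 2.93% and 2.32% of mRNA counts, mt-Nd4 3.47% and 2.66%, mt-Nd5 4.88% and 3.69%, mt-Nd1 11.4% and 10.7%, and mt-Cytb 8.72% and 7.93%, each lower than in any other library. mt-Nd6 did not follow in library 8, at 0.280% within the 0.276% to 0.321% of the other 7, and was at 0.201% in library 9. The ratio of mt-Rnr2 to mt-Rnr1 was 10.7 and 11.1, against 6.17 to 8.98. Both rRNAs were counted after the removal of rRNA, whose part in this ratio was not tested.

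Library 8 has high and library 9 low Vdac2, so this difference crossed the Vdac2 sets, and both libraries are from lane 2 and labelled KO. Libraries 6 and 7, of the same lane and label, had mt-Co1 at 62.1% and 61.7%, within the range of libraries labelled WT. Malat1, a nuclear-retained RNA, was at 9867 and 9640.3 CPM in libraries 8 and 9 and at 9852 CPM in library 3, against 12415 to 13905 CPM in the rest. The other nuclear-retained RNAs listed did not follow it in libraries 8 and 9. Neat1 was at 766 and 632 CPM in libraries 8 and 9, within the range of the rest, and at its lowest in library 3, at 616 CPM. Meg3 was at 3.29 and 5.19 CPM in libraries 8 and 9, and at its highest in library 3, at 9.11 CPM. The part of RNA quality in these differences was not tested. These libraries were singled out after their values were seen, so no test is given. With both left out, the ratio of set medians for the mRNA share was 1.04.

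**Figure D4:**
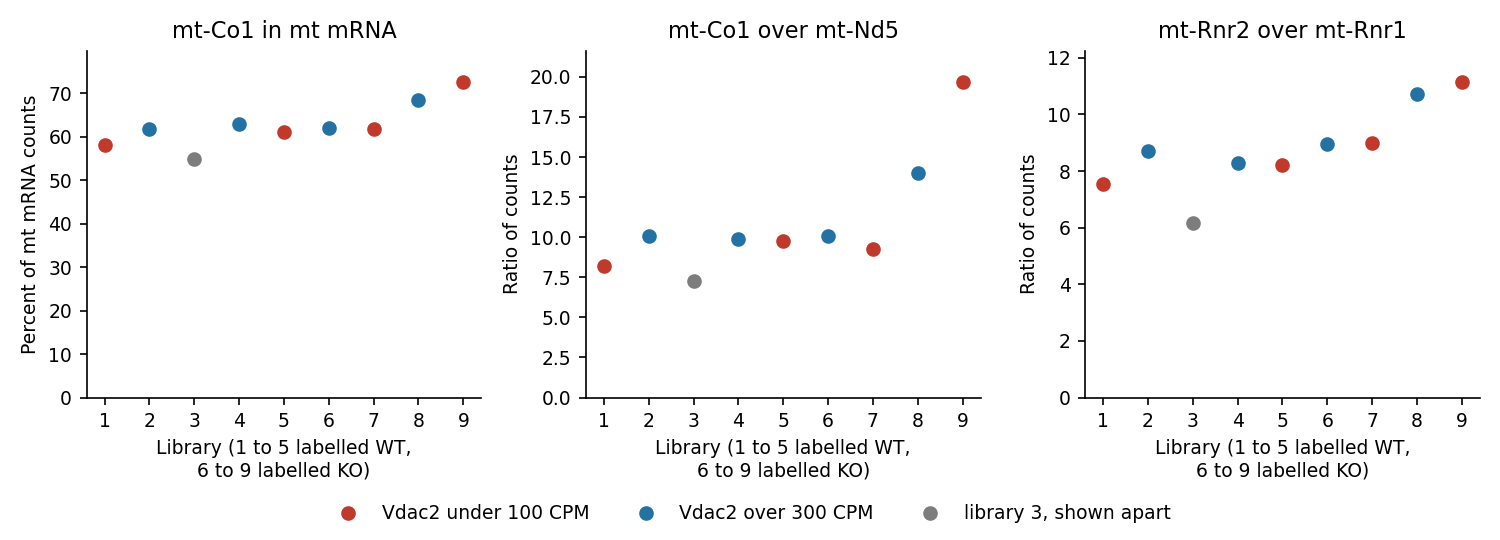
By library number, the panels plot the percent of mt mRNA counts on mt-Co1, the ratio of mt-Co1 to mt-Nd5 counts and the ratio of mt-Rnr2 to mt-Rnr1 counts. Libraries 8 and 9 are the highest in all 3 panels and library 3 the lowest.

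Library 3 had the least mitochondrial RNA. Its level was the lowest of the 9 libraries in 13 of the 15 counted genes, which included all 7 mRNAs and both rRNAs, while 37.4% of all tested genes were lowest there. mt-Co1 was at 15908 CPM against 40398 to 55134 CPM elsewhere, mt-Nd1 at 4537 against 7874 to 10233, and mt-Rnr2 at 34944 against 87755 to 103264. mt-Tl1 and mt-Tt were within the range of the other libraries there, at 2.40 and 1.75 CPM. The make-up differed too, with mt-Nd1 at 15.7% of mitochondrial mRNA against 10.7% to 13.4%.

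Other cell markers moved with this library. The 10 ventricular cardiomyocyte markers summed to 54950.3 CPM in library 3 and to 141507 to 176730 CPM in the rest, and all 10 were lowest there. The 6 fibroblast markers summed to 2856 CPM against 883 to 1329 CPM, and the 6 macrophage markers to 857 CPM against 226 to 478 CPM, although 1 marker of each list (Dcn and Cd163) was lowest there. The 6 endothelial markers summed to 540.2 CPM against 951 to 1295 CPM and the 6 of smooth muscle cells and pericytes to 952 CPM against 1184 to 1429 CPM. Of the endothelial markers 5 of 6 were lowest in library 3 and 0 highest, whereas of the smooth muscle cell and pericyte markers 2 were lowest and 3 highest. The part of cell composition in the low mitochondrial share of library 3 was not tested. Its normalisation factor was also apart, at 1.30 against 0.933 to 1.01. The study left out a WT sample for poor RNA quality without naming it. The sources used here do not show whether that sample was library 3, and the part of RNA quality was not tested.

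Between the deposited labels, 17 mitochondrial genes entered edgeR's quasi-likelihood test, the 15 counted genes with mt-Tv and mt-Tq. None of these 17 passed a Benjamini-Hochberg adjusted p of 0.05, the lowest being 0.679, and 2 had an unadjusted p under 0.05. DESeq2, run on the 28 mitochondrial genes with any count, also called 0 of them, with 2 at an unadjusted p under 0.05. Of the 20092 genes to which DESeq2 gave an adjusted p, 63 were called and 1483 had an unadjusted p under 0.05. The 28 were not limited to genes with an adjusted p. Over all 16322 tested genes edgeR called 9, or 0.0551%, of which 2 (0.0123%) were higher and 7 (0.0429%) lower in labelled KO, and 997, or 6.11%, had an unadjusted p under 0.05. Vdac2 itself differed by 0.35 (SE 1.19) on the log2 scale.

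The estimates for the mRNAs ran from -0.30 (SE 0.29) for mt-Nd4 to 0.23 (SE 0.37) for mt-Co1, as log2 fold change of labelled KO over labelled WT. mt-Nd2 was at -0.27 (SE 0.30), mt-Nd5 at -0.22 (SE 0.29), mt-Cytb at -0.10 (SE 0.29), mt-Nd1 at -0.06 (SE 0.27) and mt-Nd6 at -0.03 (SE 0.29). Each lies within about its own standard error of 0 and none was past the threshold. Among the rRNAs mt-Rnr2 was at 0.23 (SE 0.36) and mt-Rnr1 at -0.08 (SE 0.28). The 3 lowest estimates were those of the tRNAs mt-Tv, at -0.61 (SE 0.37) on 5 to 20 counts per library, and mt-Tl1 and mt-Tt, at -0.60 (SE 0.23) and -0.57 (SE 0.24) on 53 to 114 counts.

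Without library 3, 14 of the 17 estimates were negative and 9 had an unadjusted p under 0.05, each of the 9 lower in the libraries labelled KO. Of all 16251 genes then tested, 49.4% had a negative estimate, 11.8% an unadjusted p under 0.05 in either direction and 6.4% one in the lower direction. The 9 were mt-Nd1, mt-Nd2, mt-Nd4, mt-Nd5, mt-Cytb, mt-Tl1, mt-Tm, mt-Tw and mt-Tt. mt-Nd4 was then at -0.48 (SE 0.14) and mt-Nd2 at -0.46 (SE 0.13), whereas mt-Co1 was at 0.02 (SE 0.12) and mt-Rnr2 at 0.03 (SE 0.09), both having been at 0.23 with all 9 libraries. By edgeR's quasi-likelihood test none of the 17 passed adjustment, the lowest adjusted p being 0.198, while 62 of the 16251 genes did, against 9 of 16322 with all libraries. Libraries 6 and 7, which do not have the make-up of libraries 8 and 9, were both below libraries 1, 2, 4 and 5 for 6 of the 7 mRNAs, the exception being mt-Nd6, as were 8.97% of all tested genes. The mRNAs are cut from shared precursors and are not independent of each other. mt-Co1 was at 40398 and 41275 CPM there against 44505 to 51217 CPM, mt-Nd1 at 7874 and 8387 against 9157 to 10233 CPM, and mt-Nd4 at 2977 and 3059 against 3277 to 4496 CPM. This look at libraries 6 and 7 was chosen after their values were seen and has no test. Lane and label cannot be told apart in this comparison. The macrophage markers summed to 310 to 478 CPM in libraries 1, 2, 4 and 5 and to 226 to 334 CPM in libraries 6 to 9. The ventricular cardiomyocyte markers summed to 141507 to 162492 CPM against 143806 to 176730 CPM. Both overlapped, and their part in the estimates without library 3 was not tested.

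**Figure D5:**
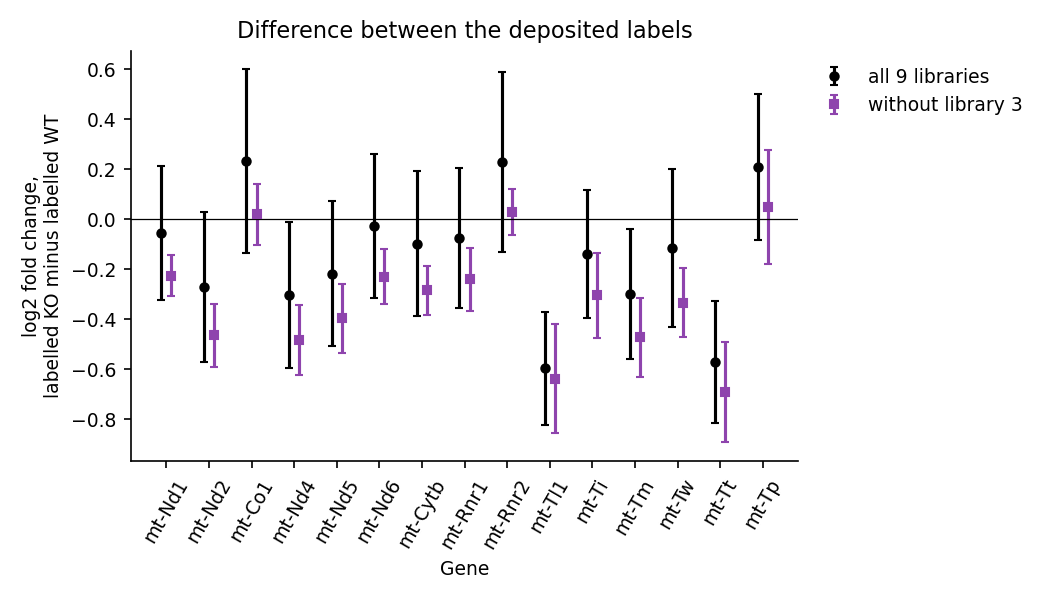
Log2 fold change of labelled KO over labelled WT with its standard error for the 15 counted genes, from all 9 libraries (black) and without library 3 (purple). Without library 3 the standard errors are smaller and mt-Nd2 and mt-Nd4 lie at -0.46 and -0.48, while mt-Co1 lies at 0.02 in place of 0.23.

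The nuclear genes that make, cut, modify and translate mitochondrial RNA were listed by role, 92 in all, of which 91 were in the table and 90 were tested. Of the 90, 1 was higher and 12 were lower in all low-Vdac2 libraries than in any high-Vdac2 library, beside 7.16% and 4.93% of all tested genes. Their median log2 ratio was -0.07 against 0.005 for all genes. Between the labels 0 of 90 passed an adjusted p of 0.05 by edgeR and 3 had an unadjusted p under 0.05. Of all tested genes, 0.0551% and 6.11% did. The summed ventricular cardiomyocyte markers differed in the same direction, at 141507 to 153312 CPM in the low-Vdac2 and 161360 to 176730 CPM in the high-Vdac2 libraries. The summed macrophage markers differed the opposite way, at 334 to 478 against 226 to 322 CPM. Taken singly, 3 of 10 ventricular cardiomyocyte markers were lower without overlap and 7 overlapped, while 3 of 6 macrophage markers were higher and 3 overlapped. The part of cell composition in the lower levels was not tested.

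In transcription, Polrmt, the mitochondrial RNA polymerase, was at 15.3 to 16.6 CPM in the low-Vdac2 and 15.9 to 16.5 CPM in the high-Vdac2 libraries. Tfam, which packages mitochondrial DNA and starts its transcription, was at 39.6 to 46.1 against 42.2 to 49.7 CPM, and Tfb2m, the other initiation factor, at 9.32 to 12.6 against 10.7 to 12.6 CPM. All of these overlapped. Of the termination factor paralogues, Mterf1a was higher in every low-Vdac2 library, at 1.38, 1.46, 1.42 and 1.61 CPM against 1.13, 1.29, 1.27 and 1.29 CPM. Mterf1b was lower in every low-Vdac2 library, at 0.426, 0.396, 0.474 and 0.415 CPM against 0.585, 0.532, 0.583 and 0.647 CPM. The 2 genes are near copies of each other, so the split of reads between them is uncertain.

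In replication and maintenance, Polg, the catalytic subunit of the mitochondrial DNA polymerase, was at 67.4, 59.5, 66.6 and 68.6 CPM in the low-Vdac2 and 73.9, 70.1, 74.8 and 77.7 CPM in the high-Vdac2 libraries. Its partner Polg2 was at 3.71, 4.298, 3.92 and 4.36 CPM against 4.93, 4.94, 4.56 and 4.76 CPM. Neither pair of sets overlapped, the ratios being 0.902 and 0.848. The helicase Twnk overlapped, at 24.9 to 27.3 against 26.2 to 30.6 CPM, and so did the single-strand binding protein Ssbp1, at 18.5 to 20.97 against 16.6 to 19.5 CPM.

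Among genes that handle the RNA, Lrpprc, which stabilises mitochondrial mRNAs, was at 325, 323, 311 and 323 CPM in the low-Vdac2 and 346, 350.4, 341 and 390.2 CPM in the high-Vdac2 libraries. This was a ratio of 0.929 without overlap. Its partner Slirp overlapped, with a ratio of 1.04. The RNA processing genes Tbrg4 and Fastkd3 did not overlap and had ratios of 0.904 and 0.902, and Mto1, which modifies mitochondrial tRNAs, had 0.896. Suclg1, a subunit of succinyl-CoA ligase that was listed under nucleotide supply, had a ratio of 0.880 without overlap.

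In translation 4 of 13 factors were lower without overlap, beside the 4.93% of all tested genes. The other roles had 1 of 10 (transcription), 2 of 13 (replication and maintenance), 1 of 11 (nucleotide supply), 2 of 12 (precursor RNA processing), 1 of 8 (RNA stability and decay) and 1 of 23 (tRNA and rRNA modification). Taco1, a translational activator of mt-Co1, was at 30.9, 30.4, 28.4 and 28.0 CPM against 33.3, 32.5, 32.1 and 32.5 CPM. Mrps35, a protein of the small ribosomal subunit, had a ratio of 0.847, the elongation factor Tufm 0.878, and Gfm2, which recycles ribosomes, 0.891. Library 3 was the lowest of the 9 for 64 and the highest for 16 of the 90 genes of the whole list, beside the 37.4% of all tested genes that were lowest there. By role it was lowest for all 13 translation factors, for 13 of 23 modification genes (highest for 5) and for 6 of 13 replication and maintenance genes (highest for 6).

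The respiratory complexes are built from mitochondrial and nuclear subunits. Of 71 nuclear subunits tested, 0 were higher and 6 were lower without overlap in the low-Vdac2 libraries, beside 7.16% and 4.93% of all tested genes, with a median log2 ratio of -0.09. The 6, named after their values were seen, were Ndufab1 and Ndufb2 of complex I, Cyc1 and Uqcr11 of complex III, Cox7a1 of complex IV and Atp5l of ATP synthase. Cox7a1, the form of that subunit typical of heart and muscle, was at 518, 543, 496 and 564 CPM against 633, 670.02, 583 and 719 CPM, a ratio of 0.814. Cyc1, cytochrome c1, was at 398, 425, 383 and 438 CPM against 446, 451, 491 and 479.6 CPM. The mitochondrial subunits of the same complexes, mt-Co1 and mt-Cytb, had ratios of 0.940 and 0.962 with overlap. The summed ventricular cardiomyocyte markers had a ratio of 0.879 and the summed macrophage markers 1.43, both without overlap. Taken singly, 3 of 10 and 3 of 6 of these markers did not overlap. The fibroblast markers had a ratio of 1.28 with overlap. The part of cell composition in the levels of the nuclear subunits was not tested. In library 3 all 71 nuclear subunits were at their lowest of the 9 libraries.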

How the data were processed

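RNA was extracted with the miRNeasy kit and made into stranded libraries with removal of rRNA (TruSeq Stranded, Ribo-Zero Gold), and 50-base single-end reads were sequenced. The values are raw counts per Ensembl gene, deposited by the authors without normalization. The submitters' processing notes name STAR 2.7.2c, featureCounts 1.6.3, DESeq2 and GRCm38. Strandedness of the counting, the annotation used for it and the treatment of multi-aligned reads are not given in the sources used here. Of 52636 genes 52403 were given a symbol from GENCODE M21, which also supplied coordinates and transcripts. Columns were matched to samples by library number, and libraries 1 to 9 had 27345052 to 44673988 counts. The study's text states that a WT sample was removed for RNA quality and does not name it, so all 9 libraries were used.

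Counts were scaled to CPM with TMM factors, and the labels were compared with edgeR 4.0.16 (R 4.3.3, filterByExpr, robust quasi-likelihood test, Benjamini-Hochberg adjustment over 16322 genes). Tested on data simulated for this comparison with 16139 genes, it recovered 74% of genes changed by 1 on the log2 scale. It recovered 100% of those changed by 2, and 6.45% of calls were false. Every simulated gene had the same dispersion of 0.06, only genes above a minimum mean count were changed, and no outlying library was simulated. The recovery was not measured for the mitochondrial genes themselves. Shares were compared by an exact permutation test. The Vdac2 sets were compared by range and median. Alternatives were DESeq2 1.42.0, RLE factors, library sizes without the mitochondrial genes, other low-count filters, other denominators and numerators, each lane alone and each library left out. Leaving out libraries 8 and 9 together was chosen after seeing the data. The genes and gene lists were chosen with earlier results of these data known. Named are all mitochondrial genes with 10 counts in every library, Vdac2, copies with at least 10 counts in every library and 50% of windows shared, 8 fixed genes of mitochondrial gene expression, and up to 4 more per role whose Vdac2 sets did not overlap, by size of the ratio. Proteins and physiology of the study were not analysed here.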

Additional observations from a re-analysis of the deposited data

Results flagged for a closer look

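Of 52 combinations of a measure and a label group examined, 8 held a library whose gap to its nearest neighbour, as a part of the range of its group, passed Dixon's 95% critical value. Chance marks about 1 in 20 such groups, but the measures share genes and libraries, so the flags are not independent of each other. Library 3, labelled WT, accounted for 6 of them, as the lowest of 5 libraries each time. Its levels were 34944 CPM for mt-Rnr2, 4537 CPM for mt-Nd1, 15908 CPM for mt-Co1 and 82.1 CPM for mt-Nd6. Its share of counts was 9.07% for all 37 mitochondrial genes and 3.77% for the 13 mRNAs. The remaining 2 were in the libraries labelled KO, where library 9 was apart as the lowest for mt-Cytb, at 6032 CPM, and library 7 as the highest for mt-Tt, at 2.27 CPM.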

How the results depend on the processing

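No mitochondrial gene was called between the labels under any alternative run, the lowest adjusted p ranging from 0.198 to 0.900. The difference in mRNA share between the labels, 0.149 points, ran from -0.599 (without library 3) to 0.415 with each library left out, being also below 0 without library 8 or library 9, and was 0.201, 0.189 and 1.08 with the other denominators and numerator. Among log2 fold changes of single genes, 11 of 224 alternative values turned sign, all on leaving out a library. The ranges then were -0.23 to 0.86 for Vdac2, -0.24 to 0.037 for mt-Rnr1, -0.23 to 0.0085 for mt-Nd1, -0.30 to 0.0078 for mt-Ti, -0.33 to 0.052 for mt-Tw, -0.23 to 0.073 for mt-Nd6 and -0.28 to 0.016 for mt-Cytb. The ratio of Vdac2 set medians for the mRNA share was 0.984 to 1.04 over all alternatives. In each alternative that kept both lanes, 0 mRNAs separated the sets. In lane 2 alone mt-Nd6 and mt-Cytb were below, beside 17.1% of tested genes. The number of genes called over the whole table was 62 without library 3, 63 with DESeq2 and 0 with at least 10 counts in every library, against 9. It was 5 to 7 with any other single library left out. No paired analysis was possible because the labels give the groups no shared replicate numbers. With 33 to 114 counts, mt-Tl1, mt-Tt and mt-Tp are limited by depth, and the tRNAs without 10 counts in every library more so. The 6 mRNAs near 0 counts support no comparison.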
